A study of Mus musculus with 4 samples.

Results

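A set of 8 genes of parasympathetic ganglia and of the nerve-associated glia that give rise to them were followed by RNA sequencing, and were taken by gene symbol from the deposited expression table. They are the transcription factors Phox2a and Hand2, the ligand Nrtn with its receptors Gfra2 and Ret, the catecholamine enzymes Th and Dbh, and the Schwann cell precursor receptor Erbb3. All 8 symbols were found, out of 24771 features, each as 1 Ensembl gene. Compared were 2 samples of salivary gland (SG) placodes, made from mouse pluripotent stem cells and harvested on culture day 10, and 2 samples of submandibular glands (SMGs) of E12.5 mouse embryos. The placodes were grown from mouse embryonic stem cells, seeded at 3000 per well, in medium that held 2% Matrigel from day 1. Added factors were BMP4 (2 ng/ml, day 3), then bFGF (25 ng/ml) with retinoic acid (1 μM) from day 4 to day 6. FGF10 (200 ng/ml) followed from day 6 to the harvest. No strain or genotype of the SMG donors is given in the sources used here. The placodes come from a single stem cell line. All samples are bulk RNA, so fewer cells of a type and less RNA per cell cannot be told apart in any value below.

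In the salivary gland, the parasympathetic ganglion forms from neural crest cells that travel along nerves as Schwann cell precursors and settle beside the epithelial duct. Phox2a and Hand2 take part in specifying autonomic neurons. Neurturin, the product of Nrtn, is made by the gland epithelium and binds GFRα2, which signals through the receptor tyrosine kinase RET, and this pathway keeps the ganglion neurons alive and draws their axons to the epithelium. Th and Dbh encode enzymes on the way from tyrosine to noradrenaline and are best known from sympathetic neurons, although early autonomic precursors of other kinds can express them for a time. ErbB3 is the receptor through which neuregulin from axons maintains Schwann cell precursors. Several of these genes also have roles elsewhere, such as Hand2 in branchial arch mesenchyme and Ret, Phox2a and Th in the central nervous system.

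Expression was given by the authors as FPKM, the fragments mapped to a gene, scaled by its transcript length and by the number of mapped fragments, so levels can be set side by side between genes. The sum of FPKM was 361963 to 384773 per sample and 12636 to 12807 features per sample reached an FPKM of 1. Read numbers cannot be recovered from FPKM here, so the depth is unknown and no counting interval is given. Nothing in the labels says that the samples of a group came from separate cultures or litters, so p-values measure only the spread between these samples. To check the tissue labels, the 6 salivary epithelium markers summed to an FPKM of 540.2 and more in both SMG samples and to 4.30 or less in both placode samples, in which Krt5, Krt14 and Krt15 were listed at 0. The sum of 11 pan-neuronal markers was 1378 and 1395 in placodes and 126 and 114 in SMGs. All tested markers of endothelium (4), erythroid cells (4), skeletal muscle (3) and melanocytes (1) were lower in placodes, and erythroid markers summed to 2387 and more in SMGs and to 0.255 or less in placodes.

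The 8 genes split into 3 groups. Hand2, Nrtn, Dbh and Erbb3 fell in the placodes relative to the SMGs, Ret and Th rose, and Phox2a and Gfra2 did not pass the threshold in either direction. A gene was called different at a Benjamini-Hochberg adjusted p below 0.05 in limma, fitted to log2(FPKM + 1) of the 13193 features whose FPKM averaged 1 or more. Each of the 8 genes passed this filter. Of the 8, 6 were called, where 76.2% of all tested features were. The 4 genes that fell compare with 40.4% of features called lower, and the 2 that rose with 35.7% called higher. On the log2(FPKM + 1) scale, 4 of the 8 were called with a change of at least 2-fold, against 29.4% of features. These were the 4 genes that fell, where 15.2% of features fell by that much, and no member rose by that much, which 14.1% of features did. The placode and SMG values were fully separated for 8 of the 8 genes, and for 88.4% of tested features. The median log2 fold change of the 8 genes was -0.87, against -0.05 over all tested features, and their median absolute log2 fold change was 1.22, against 0.55.

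**Figure D1:**
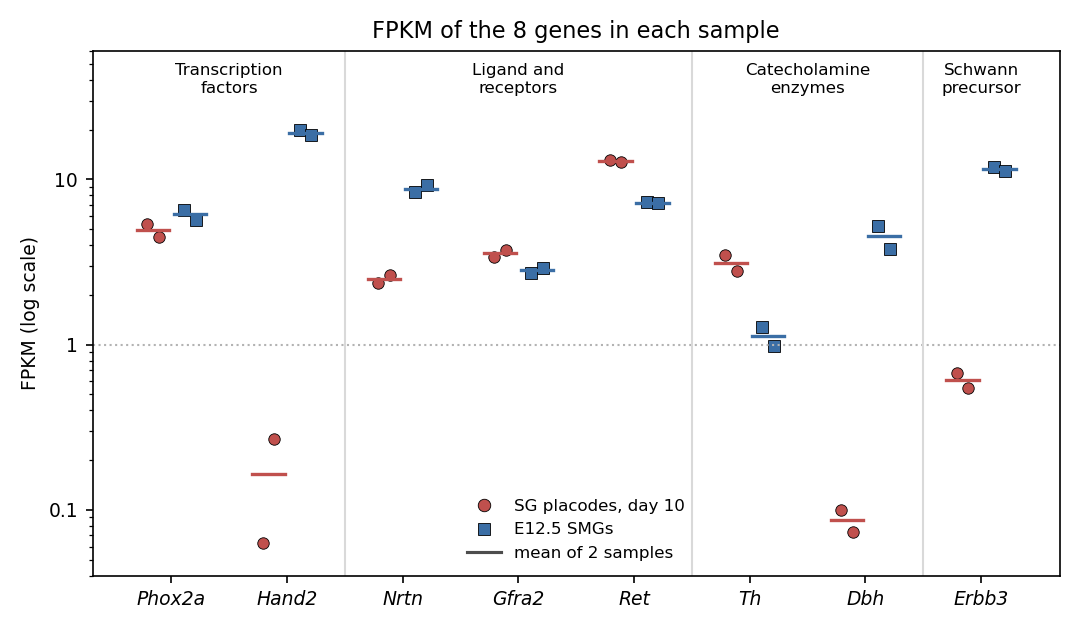
FPKM on a log axis of each of the 8 genes in the 2 samples of SG placodes (circles) and the 2 samples of E12.5 SMGs (squares), with a bar at the mean of each pair and a dotted line at an FPKM of 1. Phox2a and Gfra2 lie close together in the groups, whereas Hand2, Dbh and Erbb3 lie below 1 in both placode samples and at 3.79 or more in both SMG samples.

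**Figure D2:**
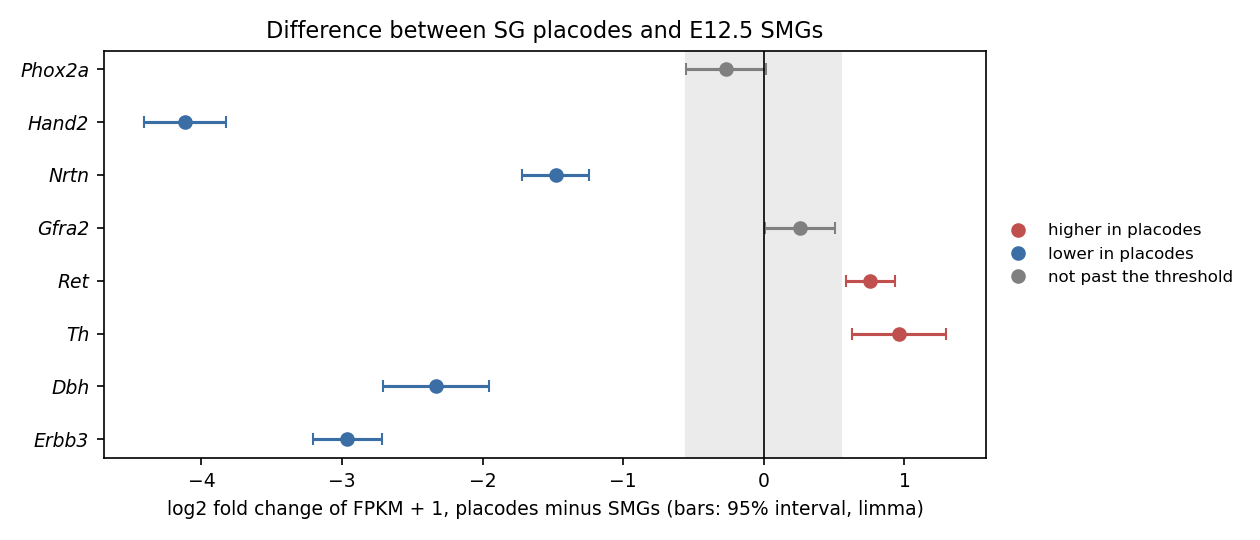
The log2 fold change of FPKM + 1, placodes minus SMGs, for the 8 genes, with the 95% interval of limma as a bar and the median absolute change of all tested features (0.55) as the grey band. Hand2 is the lowest at -4.12 and Th the highest at 0.96, and the points of Phox2a and Gfra2 lie inside the band.

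Phox2a is a homeodomain factor needed by autonomic neurons and some hindbrain neurons. Its gene occupies chromosome 7, GRCm38, 101818313 to 101822726. FPKM was 5.40 and 4.48 in placodes and 6.57 and 5.72 in SMGs. Both placode values were below both SMG values, but the gap between the nearest values was smaller than the spread within either group. This gave a log2 fold change of -0.27 (standard error 0.12, 95% interval -0.55 to 0.02, adjusted p = 0.0778, limma). With the replicate number as a block, the adjusted p was 0.0469. Its exons share 95 bases with Inppl1 on the opposite strand, 4.67% of its exonic length, and the strandedness of the libraries is not given in the sources used here. Inppl1 had an FPKM of 27.0 to 37.6 over the 4 samples.

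Hand2, a bHLH factor that drives the noradrenergic programme and patterns the branchial arches, gave the widest difference of the 8 genes. It lies on chromosome 8 from 57320983 to 57324633 and had an FPKM of 0.0631 and 0.268 in placodes, against 19.8 and 18.5 in SMGs. Its level was thus near 0 in both placode samples and the highest of the 8 genes in both SMG samples. On the log2 scale Hand2 changed by -4.12 (standard error 0.12, adjusted p = 9.25e-07). With a pseudocount of 0.1 or 0.001 in place of 1, this became -6.29 or -7.19. An antisense transcript, Hand2os1, covers 19.6% of its exonic length, and no feature of that symbol was found among the deposited values. Markers of arch mesenchyme moved in the same direction. All 7 tested markers of the 8 in that list were lower in the placodes, their summed FPKM was 153 to 157 in placodes and 1301 to 1327 in SMGs, and none was at 0 in both placode samples. The Dlx5 and Dlx6 values of that list, for arch homeodomain factors, were 0.393 or less in placodes and 3.97 or more in SMGs. The part of mesenchyme in the Hand2 difference was not tested.

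Other autonomic neuron factors were set beside them. Tfap2b, a neural crest and sympathetic factor, fell, from 9.84 and 9.39 in SMGs to 1.61 and 1.53. The neuroendocrine factor Insm1 rose, with 23.4 and 23.5 in placodes against 3.00 and 3.11. Isl1, a factor of motor, sensory and autonomic neurons, was higher in the placodes by 0.44 on the log2 scale (adjusted p = 0.0190), and this call was lost when either SMG sample was left out, with an adjusted p of 0.0694 without sample 1 and 0.0533 without sample 2. Of the 8 factors other than the members, 5 were higher, 2 were lower, and Gata3 did not pass the threshold (adjusted p = 0.106).

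Nrtn, the ligand of the pathway, lies on chromosome 17 from 56751325 to 56757530. Its FPKM was 2.37 and 2.64 in placodes and 8.36 and 9.22 in SMGs. The mean was 3.51 times higher in the SMGs, with a log2 fold change of -1.48 (standard error of 0.10, adjusted p = 2.68e-05). Salivary epithelium markers, from the tissue that makes neurturin in the gland, moved in the same direction, with all 6 of 6 lower in the placodes and their sums as given above. The part of the epithelium in the Nrtn difference was not tested.

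Gfra2, which encodes the co-receptor for neurturin, lies on chromosome 14 from 70890120 to 70979838. It had an FPKM of 3.41 and 3.76 in placodes and 2.73 and 2.93 in SMGs. Both placode values were above both SMG values. The difference on the log2 scale was 0.26 (standard error 0.10, 95% interval 0.01 to 0.51), with an adjusted p of 0.0567 in limma. Rescaling the samples to an equal sum of FPKM took the adjusted p to 0.0361.

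Ret, the signalling receptor shared by the whole GDNF ligand family, lies on chromosome 6 from 118151745 to 118197718. Its FPKM was 13.1 and 12.7 in placodes and 7.31 and 7.15 in SMGs, and the samples of each group differed little. The placode mean was 1.79 times the SMG mean, with a log2 fold change of 0.76 (standard error of 0.07, adjusted p = 1.17e-04). Ret was the most abundant of the 8 genes in both placode samples. There it was above Gfra2 by a ratio of 3.85 and 3.39, against 2.68 and 2.44 in SMGs.

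Other ligands and co-receptors of the GDNF family were measured beside them. Gfra1, the co-receptor for GDNF, was the most abundant receptor of the family in both groups, with an FPKM of 33.5 and 36.3 in placodes and 13.9 and 11.9 in SMGs (log2 fold change 1.37, adjusted p = 2.22e-05). It stood above Gfra2 by a ratio of 9.82 and 9.65 in placodes and of 5.11 and 4.06 in SMGs. Gfra4, the co-receptor for persephin, went the other way, with 1.29 and 1.05 in placodes and 6.72 and 7.09 in SMGs (log2 fold change -1.87, adjusted p = 1.40e-05). The other ligands were low. Gdnf had an FPKM of 0.0402 and 0.124 in placodes and 0.679 and 0.675 in SMGs, and Artn, which encodes artemin, had 0.314 and 0.395 against 0.669 and 1.06. Pspn, the gene of persephin, overlapped between the groups at 0.311 to 0.753, Gfra3, the co-receptor for artemin, was at 0.251 and 0.262 against 0.829 and 1.06, and Gfral was listed at 0 in all 4 samples. Nrtn was therefore the most abundant of the 4 ligands in every sample. These 5 genes were below the mean FPKM of 1 and were not tested.

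Adaptors that couple RET to its downstream kinases differed in direction. Of 9 listed, 8 were tested, with 3 up and 4 down in placodes, and Ptpn11 did not pass the threshold (log2 fold change -0.10, adjusted p = 0.0960). The highest was Dok5, a docking protein of neurons, with an FPKM of 12.0 and 10.2 in placodes and 1.52 and 1.41 in SMGs. The lowest was Shc1, a broadly used adaptor of receptor tyrosine kinases, with 10.8 and 9.71 against 52.4 and 55.2.

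Th and Dbh, which act in the same pathway, changed in opposite directions. Th encodes tyrosine hydroxylase, which makes L-DOPA and is the rate-limiting step of catecholamine synthesis. It spans 142892752 to 142931128 on chromosome 7 and had an FPKM of 3.49 and 2.78 in placodes and 1.27 and 0.975 in SMGs. The mean FPKM was 2.79 times higher in placodes, and the log2 fold change was 0.96 (standard error of 0.14, adjusted p = 8.96e-04), or 1.48 with a pseudocount of 0.001. Dbh encodes dopamine β-hydroxylase, which turns dopamine into noradrenaline. It lies on chromosome 2 from 27165233 to 27183200 and had an FPKM of 0.0995 and 0.0733 in placodes and 5.26 and 3.79 in SMGs. Dbh was thus the least abundant of the 8 genes by mean in the placodes, with a log2 fold change of -2.33 (standard error of 0.15, adjusted p = 2.58e-05), or -4.62 and -5.69 with a pseudocount of 0.1 and 0.001. The ratio of Dbh to Th was 4.14 and 3.89 in SMGs and 0.0286 and 0.0264 in placodes, a 146-fold difference between the groups that a linear rescaling of the samples cannot change. In the placodes it rests on Dbh values of 0.0995 and 0.0733, close to 0 and at unknown depth, so the size of the difference is uncertain. The ratio of Dbh to Th and the others given here were chosen after the values were seen and were not tested.

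Short stretches upstream of the start sites of Dbh and Th are shown because these genes of a single pathway changed in opposite directions, and because homeodomain proteins such as Phox2a are known to bind ATTA sequences of the Dbh promoter. Upstream sequence came from a set of RefSeq promoter sequences on GRCm38.p6, and the set available here had an entry for 5 of the 8 genes. The 250 bases before each start site were searched on both strands for 2 motifs. These were ATTA, the core that homeodomain proteins bind, and the palindrome TGACGTCA, the cAMP response element. Matches are in capitals, ATTA of the opposite strand reads TAAT, and the lines run 5′ to 3′ on the strand of the gene.
Dbh, chr2:27165342-27165371, plus strand: catgtgtcATTAgtgccaATTAggggagat
Dbh, chr2:27165429-27165458, plus strand: ccagacaaatgtgATTAggtgcagcctggc
Th, chr7:142900150-142900179, minus strand: gtggatgcaATTAgatcTAATgggacggag
Th, chr7:142900022-142900051, minus strand: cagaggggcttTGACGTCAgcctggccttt
The Dbh window held 3 ATTA matches, which began 157, 147 and 65 bases before the RefSeq start site, and no TGACGTCA. The Th window held 2 ATTA matches, at 175 and 167 bases, and 1 TGACGTCA at 45 bases. At least 1 ATTA occurred in 54.9% of the 32851 RefSeq promoter windows of this length, at least 2 in 30.8% and at least 3 in 17.3%, so the ATTA matches are common, whereas TGACGTCA occurred in 1.55%. Hand2 had 5 ATTA matches, and Phox2a and Nrtn had 0. In GENCODE M21, both Dbh stretches lie in the 5′ UTR (27165233 to 27165515) of the full-length transcript Dbh-201, which begins 274 bases upstream of the RefSeq start. Both Th stretches lie in an intron of the transcripts Th-202 and Th-206, which begin far upstream, and outside the other 4 Th transcripts. Whether any of these matches has a part in the Th and Dbh differences was not tested.

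Other catecholamine genes also differed step by step. Ddc, the decarboxylase between Th and Dbh, fell with Dbh, with an FPKM of 1.92 and 3.09 in placodes and 19.7 and 15.7 in SMGs (log2 fold change -2.43, adjusted p = 4.58e-05). Slc18a2, which loads monoamines into vesicles, rose with Th, with 7.05 and 6.24 against 1.87 and 1.40 (log2 fold change 1.54, adjusted p = 6.88e-05). Maoa, which degrades monoamines, was lower in the placodes at 2.80 and 2.88, against 9.85 and 11.2. Spr, which makes the cofactor of tyrosine hydroxylase, was lower by less, with 17.2 and 14.6 against 25.2 and 20.7 (adjusted p = 7.86e-03), and this call was lost without placode sample 2 (adjusted p = 0.108) or without SMG sample 1 (adjusted p = 0.0709). Pts and Qdpr of the same cofactor pathway did not pass the threshold, with levels of 16.7 to 18.8 and 38.3 to 42.2 over the 4 samples. Gch1 of the same list was higher in the placodes, at 1.15 and 1.04 against 0.488 and 0.589, but was below the level set for testing. Pnmt and Slc18a1 were at 0.145 or less in every sample. The noradrenaline transporter Slc6a2 was at 0.286 or less in every sample, and the dopamine transporter Slc6a3 read 0 in each placode sample and was at 0.0346 or less in SMGs. Of the 12 genes of the list other than Th and Dbh, 7 were tested, of which 1 was higher and 3 were lower.

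Central neurons can also express Th, and markers of midbrain dopamine neurons did not move together. Of the 3 tested of 7, Lmx1b was higher in the placodes at 3.37 and 4.27 against 0.0325 and 0.0977. Pitx3 was lower at 0.131 and 0.394 against 5.46 and 4.03, and Nr4a2 at 1.70 and 1.51 against 3.11 and 3.55. Of the untested members, Foxa2 was at 1.32 and 1.98 in placodes against 0.0296 and 0, En1 was at 1.74 and 1.48 against 0.0225 and 0.0399, and Lmx1a was at 0.168 or less in every sample. The summed FPKM of the list was 8.38 and 9.75 in placodes and 8.81 and 7.91 in SMGs, but different genes made up these sums. Pitx3 and Nr4a2 gave most of the sum in the SMGs, and Lmx1b was the largest part in the placodes. The part of these cells in the Th difference was not tested.

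Erbb3 lies on chromosome 10 from 128567523 to 128589652. Its FPKM was 0.671 and 0.550 in placodes and 11.8 and 11.2 in SMGs. It was below 1 in both placode samples, with a mean 18.9 times higher in the SMGs and a log2 fold change of -2.96 (standard error of 0.10, adjusted p = 1.64e-06). Erbb2, the kinase with which ErbB3 pairs, fell less, with 9.87 and 11.2 in placodes against 19.5 and 18.9 (log2 fold change -0.81, adjusted p = 1.40e-04). The ratio of Erbb3 to Erbb2 was 0.0680 and 0.0491 in placodes and 0.609 and 0.594 in SMGs. Nrg1, the gene of the ligand neuregulin 1, did not pass the threshold, with 2.47 and 2.29 in placodes and 1.86 and 2.12 in SMGs (adjusted p = 0.183). Salivary epithelium markers were lower in the placodes as Erbb3 was, with their sums as given above. The parts of the epithelium and of Schwann cell precursors in the Erbb3 difference were not tested.

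Other genes of Schwann cell precursors were mixed. Sox10, the factor that defines neural crest glia and activates Erbb3, fell with it, from an FPKM of 19.1 and 16.7 in SMGs to 2.00 and 1.58 (log2 fold change -2.76, adjusted p = 3.63e-06). Cdh19, a cadherin of Schwann cell precursors, read 0 in each placode sample and had 1.91 and 1.85 in SMGs, and was not tested. Pmp22 and Tfap2a, of myelin and of neural crest, were also lower, Pmp22 from 45.9 and 42.0 to 7.74 and 7.50. In all, 3 genes of the list that neural tube progenitors express too rose by at least 2-fold. Fabp7, a fatty acid binding protein of radial glia as well as of Schwann cell precursors, was at 343 and 367 in placodes against 14.6 and 10.9, Ednrb, the endothelin receptor of crest cells, was at 117 and 115 against 10.5 and 10.9, and Pou3f1, a factor of promyelinating Schwann cells, was at 6.06 and 6.80 against 0.255 and 0.112. Mbp was higher by 0.67 on the log2 scale (adjusted p = 5.99e-04), and Foxd3, an early crest factor, did not pass the threshold (log2 fold change 0.29, adjusted p = 0.0640). Ngfr, the low-affinity neurotrophin receptor of crest cells, was 27.4 and 28.3 in placodes and 37.8 and 33.9 in SMGs (adjusted p = 3.36e-03), a call that was lost without placode sample 1 (adjusted p = 0.0566). Of the 17 genes of the list other than Erbb3, 12 were tested, of which 4 were higher and 6 were lower. Markers of neural tube progenitors moved with the genes that rose, with all 5 tested of 7 higher in the placodes and a summed FPKM of 357 and 368 against 36.5 and 34.5, and none at 0 in a placode sample. Their part in these differences was not tested.

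Genes for transmission in ganglia mostly rose. Of 13 genes, 9 were tested, of which 7 were higher, all by at least 2-fold, and 2 were lower. Over all tested features, 35.7% were called higher, 14.1% were higher by at least 2-fold, and 40.4% were called lower. The nicotinic receptor subunits Chrna3, Chrna5 and Chrnb4, which make the receptor of autonomic ganglia, all rose. Their mean FPKM was 11.4, 41.5 and 5.44 times higher in the placodes. Summed pan-neuronal FPKM was 11.6 times higher in the same samples. Whether neurons outside ganglia had a part in these rises was not tested. Chrna5 was at an FPKM of 44.9 and 41.8 in placodes against 1.33 and 0.764, Chrna3 at 20.0 and 20.1 against 1.82 and 1.71, and Chrnb4 at 6.00 and 5.61 against 0.940 and 1.19. Chrna7 and Chrnb2, subunits found widely in the nervous system, were higher too, at 8.20 and 8.27 against 1.85 and 1.71 and at 12.0 and 13.0 against 1.21 and 1.41. Ache, the acetylcholinesterase, was at 23.7 and 22.9 against 2.86 and 1.72, and Slc18a3, the vesicular acetylcholine transporter, at 4.07 and 4.24 against 0.824 and 0.538. Vip, a peptide transmitter of salivary parasympathetic neurons, read 0 in each placode sample and had 6.89 and 4.54 in SMGs. Bche, a cholinesterase that glia also express, was lower at 1.43 and 1.57 against 4.94 and 3.44. The remaining genes of the list were below the level set for testing and did not move together. Chat, which makes acetylcholine, was at 1.07 and 0.976 in placodes and 0.136 and 0.0526 in SMGs. Slc5a7 was lower in the placodes, at 0.112 and 0.164 against 0.244 and 0.278. Nos1 was lower too, at 0.315 and 0.274 against 1.22 and 0.657. Npy overlapped between the groups, at 0.808 and 1.32 against 1.07 and 0.553. Motor neurons share cholinergic genes, and the list of 6 motor neuron markers includes Slc18a3 and Chat of the same set and Isl1 of the autonomic factors, so it is not a separate measure. Its only tested genes were Slc18a3 and Isl1, given above. Of the markers that no other list holds, Mnx1 was at 0.876 and 0.718 and Lhx3 at 1.61 and 1.80 in placodes, and both were listed at 0 in both SMG samples, whereas Tbx20 was at 0.0868 and 0.124 against 0.192 and 0.201. The part of motor neurons in the cholinergic differences was not tested.

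Among neurotrophins and their receptors, 4 of 6 tested genes of 7 were lower in the placodes and none was higher. Ntrk2 had the highest log2 fold change, at -0.03, with 52.5 and 43.7 against 46.4 and 51.8 (adjusted p = 0.780). Over all 72 listed genes other than the 8 members, 51 were tested, of which 21 were higher and 21 were lower, or 42 called. Among all tested features, 35.7% were higher and 40.4% were lower, or 76.2% called. The counts of each list by role stand beside these same shares.

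**Figure D3:**
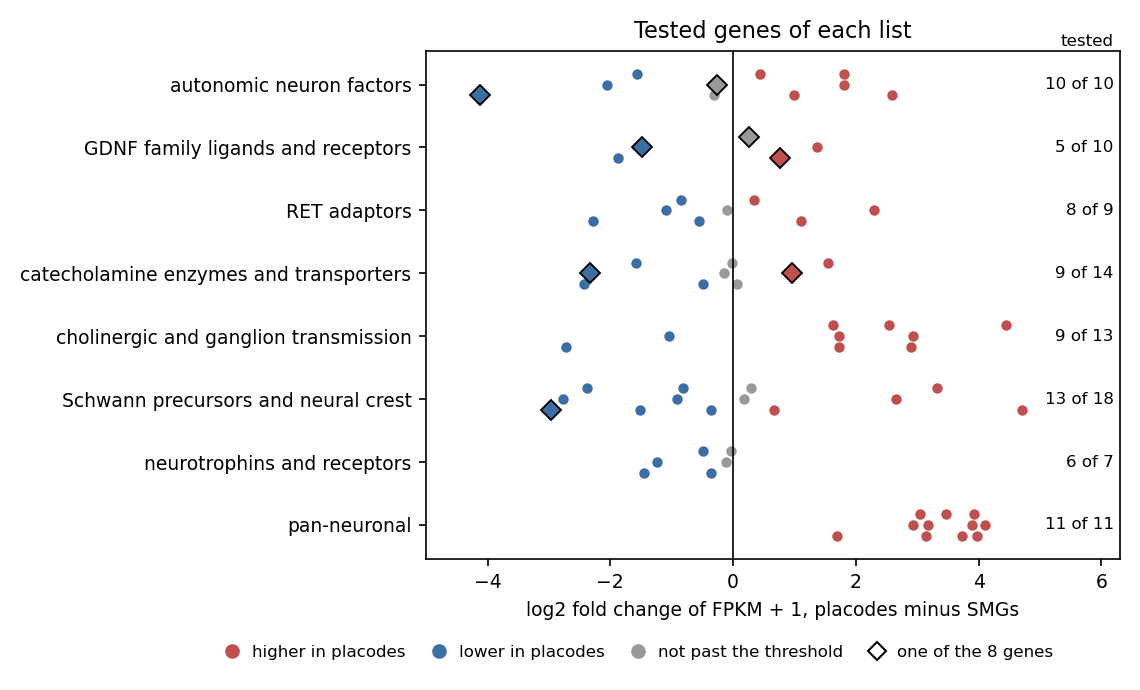
The log2 fold change of FPKM + 1, placodes minus SMGs, of each tested gene in 7 lists by role and in the pan-neuronal list, with diamonds for the 8 genes and the number tested at the right. Pan-neuronal genes are all higher in the placodes (11 of 11), ganglion transmission genes mostly so (7 of 9 tested), and the other lists spread to both sides or, for neurotrophins, lie at or below 0.

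The level of general neuronal genes rose further in the placodes than that of Phox2a, Ret, Th and Dbh. All 11 pan-neuronal markers rose in the placodes, with a median log2 fold change of 3.47, and the lowest of them was Prph, the intermediate filament peripherin of peripheral and motor neurons, with 7.14 and 5.43 against 1.46 and 1.02 (log2 fold change 1.70). The highest was Snap25, a synaptic vesicle fusion protein, with 42.6 and 44.4 against 1.70 and 1.45. The summed FPKM of these 11 genes was 11.6 times higher in the placodes, so any gene that rose by less takes a smaller percent there. As a percent of that sum, Phox2a was at 0.392% and 0.321% in placodes and at 5.20% and 5.03% in SMGs, a 14.4-fold difference. Its FPKM alone did not pass the threshold, so most of this difference lies in the sum. Ret and Th, which had a higher FPKM in the placodes, had a lower percent there, Ret at 0.951% and 0.913% against 5.80% and 6.28%, and Th at 0.253% and 0.199% against 1.01% and 0.857%. Dbh was at 0.00723% and 0.00525% against 4.17% and 3.33%.

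**Figure D4:**
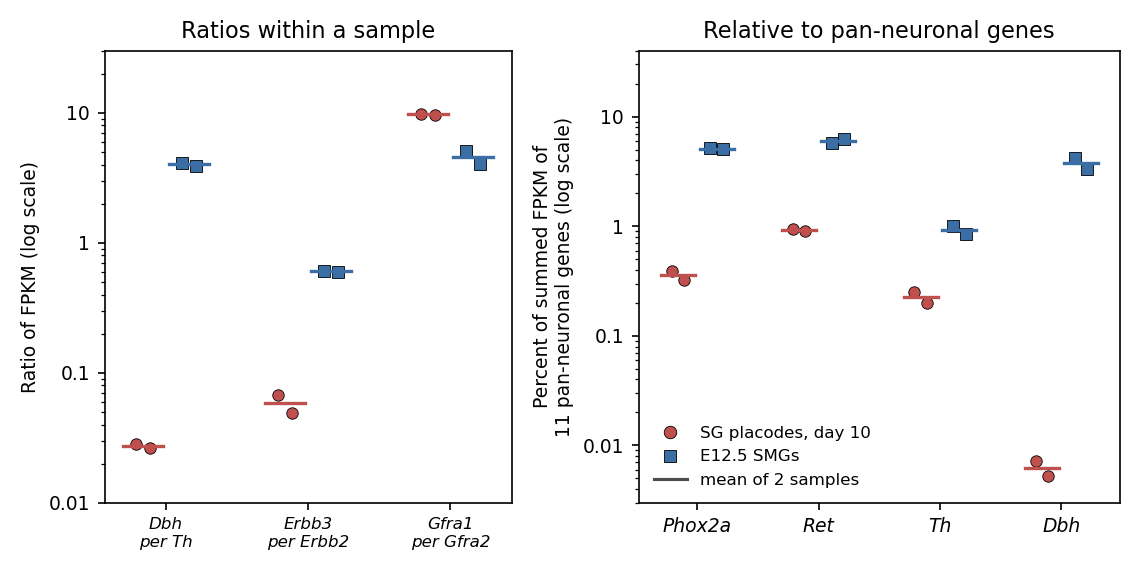
Left, ratios of FPKM within each sample for 3 pairs of genes, and right, the FPKM of 4 genes as a percent of the summed FPKM of 11 pan-neuronal genes, both on log axes with circles for placode samples, squares for SMG samples and a bar at each mean. Dbh per Th is about 4 in SMGs and below 0.1 in placodes. All 4 genes take a smaller percent in the placodes, where the sum itself is 11.6 times higher.

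The order of the 8 genes by FPKM differed between the groups. In the SMGs it ran from Hand2 through Erbb3, Nrtn, Ret, Phox2a, Dbh and Gfra2 to Th, and no neighbours in this order overlapped in their values. In the placodes it ran from Ret through Phox2a, Gfra2, Th, Nrtn, Erbb3 and Hand2 to Dbh, and Gfra2 and Th overlapped, as did Hand2 and Dbh. An FPKM of at least 1 in both samples was reached by 5 of the 8 genes in the placodes (Ret, Phox2a, Gfra2, Th and Nrtn) and by 7 in the SMGs (all but Th). For reference, the median of all tested features was 10.5 in the placodes and 10.8 in the SMGs. Within the SMGs, sample 1 had the higher value for 6 of the 8 genes, with Nrtn and Gfra2 as the exceptions, and within the placodes sample 1 was higher for 5.

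The 3 Ensembl genes with the most similar values were found by the Euclidean distance of log2(FPKM + 1) over the 4 samples, as a description. For Phox2a they were Tctn3 (distance 0.125), Camk1g and R3hcc1l, and for Hand2 they were Eng (0.198), Klf14 and Stk26. Nrtn lay nearest to Plxdc2 (0.108), Unc5d and Mdfic, Gfra2 to Nemp1 (0.12), B230217C12Rik and Dusp23, and Ret to Dip2b (0.0608), Grpel2 and Med31. Th lay nearest to Fbxl21 (0.0819), Adgrb3 and Cnmd, Dbh to Cdh15 (0.143), Dlx6 and Tm4sf1, and Erbb3 to Col14a1 (0.154), Anxa3 and Gja4. With 2 groups of 2 samples, this measure mainly matches the level in each group.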

How the data were processed

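RNA from day 10 SG placodes (2 samples) and from E12.5 mouse SMGs (2 samples) was sequenced as paired-end reads. The authors mapped the reads with HISAT2 and deposited FPKM for each gene and sample. The submitters' processing notes name the builds GRCm38 and GRCh38. The HISAT2 version, annotation, strandedness and the software behind the FPKM values are not given in the sources used here. The 8 genes and the gene lists were chosen with earlier results of these data known.

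Values were used as log2(FPKM + 1), which understates the change of low genes. For the 13193 features averaging an FPKM of 1 or more, group differences came from limma 3.58.1 (R 4.3.3), with lmFit and a trended eBayes. P-values were two-sided and Benjamini-Hochberg adjusted over these features. An exact permutation test of 2 against 2 samples cannot give a p below 0.333. No sequencing batch is named in the sources, so a batch that follows the groups cannot be told apart from them. The named genes are the 8 members, all GDNF family genes, the tested gene with the highest and with the lowest log2 fold change of every other list by role, each gene of the autonomic, catecholamine, cholinergic and Schwann lists with a group mean FPKM of at least 5, and the 3 genes nearest to each member. Others, among them Isl1, Gata3, Ptpn11, Nrg1 and Foxd3 and marker genes, were added to the text once their values had been seen. Some genes that this rule names are not reported here. Coordinates are those of GENCODE M21 (GRCm38), where all 137 listed genes had the same symbol. The procedure was run on simulated data in which 200 of 13193 features changed by 1 on the log2 scale. It recovered 200 of these and called 6 of the 12993 unchanged features. Noise there was independent between samples and far fewer features changed than the 76.2% called here. The simulation therefore cannot show how reliable the calls in these data are. Figures were drawn with Python 3.11.15 and matplotlib 3.10.9.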

Additional observations from a re-analysis of the deposited data

How the results depend on the processing

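Results were recomputed under 14 alternatives that changed 1 choice each, beside other detection levels: the pseudocount, the minimum of mean FPKM, the scaling of the samples, the variance model, the replicate block and each sample left out. Hand2, Nrtn, Dbh, Erbb3, Ret and Th kept their direction and their call wherever they were tested. At a mean FPKM of at least 5, Th, Dbh and Gfra2 were not tested, so 1 member was called higher. The log2 fold change of Gfra2 passed the threshold at 0.31 with an equal FPKM sum, 0.31 with median-ratio scaling, 0.29 with quantile normalization and 0.26 without a variance trend (adjusted p 0.0264 to 0.0361). The adjusted p of Gfra2 over all alternatives was 0.0264 to 0.175. With the replicate block, Phox2a passed at -0.27 (adjusted p = 0.0469) and 5 members were called lower. Over all alternatives the adjusted p of Phox2a was 0.0469 to 0.351. The shared replicate numbers are not stated to mark a pairing, and the deviations of same-numbered samples from their group means had r = -0.0348 across 13193 features. The block changed no other member's call. At a detection level of 5 FPKM, 1 member was detected in the placodes. The log2 fold change of Pts turned positive with an equal FPKM sum (0.0384) and median-ratio scaling (0.0368), and it ranged from -0.10 to 0.0618 when 1 sample was left out, with 0.000243 without placode sample 2 and 0.0618 without SMG sample 1. That of Ntrk2 turned positive under the same scalings (0.0282 and 0.0266), and it ranged from -0.16 to 0.0977 when 1 sample was left out, with 0.0977 without placode sample 2 and 0.0471 without SMG sample 2. Neither gene was called in any of these. Scalings moved the median of all tested features by 0.0552 or less on the log2 scale.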
